A study of Homo sapiens with 8 samples.

Results

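Amino acid carriers of the plasma membrane were examined around SLC7A11, the cystine/glutamate exchanger of the Xc-system, in RNA of CAKI1 cells treated with iron-loaded lipocalin-2 (hLcn-2). The 10 genes were chosen by name as carriers of cystine, glutamate, glutamine and large neutral amino acids, and their rows were found by gene symbol. Of the 16782 genes in the table, 9 were members, all of which passed the filter on low values; SLC6A9, which encodes the glycine transporter GlyT1, was not analysed here. CAKI1 is an established human renal carcinoma cell line. Cells were serum starved for 24 h in both groups and were then kept without stimulus (4 control samples) or exposed for 24 h to hLcn-2 at 5 µg per ml (4 samples). The hLcn-2 was recombinant human protein made in bacteria, and each group carries the replicate numbers 1 to 4.

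Cystine taken up through the Xc-system is reduced to cysteine, the amino acid that limits glutathione synthesis, and each cystine is paid for with a glutamate sent out. SLC7A11 is the transporting light chain of this exchanger and reaches the membrane only when bound to the glycosylated heavy chain SLC3A2 (4F2hc, CD98). The same heavy chain carries SLC7A5 (LAT1), which takes in leucine and other large neutral amino acids, and SLC7A6 (y+LAT2), which exchanges cationic for neutral amino acids. SLC1A5, SLC38A1 and SLC38A2 bring in glutamine, the source of the glutamate that is exported. In amino acid shortage and other stresses that phosphorylate eIF2α, the transcription factor ATF4 acts on many of these genes through C/EBP-ATF response elements.

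Promoter windows of the members were searched for the core of that element, TGATGNAA, on both strands, as a description without a test. RefSeq (GRCh38.p14) gave windows of 300 bases around the start site, most of them upstream of it, for 9 of the 10 genes, several of them with more than 1 start site, and 15 windows in all; SLC7A11 was without one. The core was found in 5 of the 15 windows, of 5 different genes, against 3.62% of all 34943 windows. The matches are shown within 30 bases, read 5′ to 3′ along the gene, with the core in capitals, which in SLC1A4 and SLC3A2 mark its reverse complement.
SLC1A4: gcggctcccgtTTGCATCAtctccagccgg
SLC3A2: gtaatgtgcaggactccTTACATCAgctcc
SLC7A1: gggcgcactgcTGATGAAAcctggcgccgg
SLC38A1: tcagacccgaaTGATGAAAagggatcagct
SLC1A5: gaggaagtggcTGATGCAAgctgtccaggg
They lie at chr2:64989381-64989410 and chr11:62881719-62881748 on the plus strand, and at chr13:29595663-29595692, chr12:46266502-46266531 and chr19:46784893-46784922 on the minus strand, in that order. Counted from the start site as 1, the core begins at -7 in SLC1A4, 38 in SLC3A2, 8 in SLC7A1, -4 in SLC38A1 and -97 in SLC1A5. The start site used is at the 5′ end of the GENCODE 44 gene for SLC7A1 and inside the gene, at another transcript's start, for the other 4. The windows of SLC7A5, SLC7A6, SLC38A2 and SLC6A9 did not hold these letters. The core of the antioxidant response element, TGACNNNGC, to which NRF2 binds, was found in 5 of the 15 windows (SLC3A2, SLC7A1, SLC7A5, SLC7A6 and SLC1A5) against 13.3% of all windows. For SLC3A2 it is the run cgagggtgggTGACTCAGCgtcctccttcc at chr11:62881652-62881681 on the plus strand. The E-box CACGTG was found in 2 of the 15 windows, those of SLC7A5 and SLC1A5, against 7.23%. None of the matches overlapped another, and a match is a description of the sequence, not a binding site. Whether the matches go with the differences after hLcn-2 was not tested, nor was the use of these start sites in the cells.

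Expression was read with QuantSeq 3′ libraries with unique molecular identifiers, which count the 3′ ends of transcripts, and values are the authors' normalized counts, scaled to a common library size (CPM). The libraries held 1501563 to 13953090 reads in controls and 2088266 to 11341137 after hLcn-2, so that 3 reads were worth between 0.211 and 1.98 CPM. Renal markers were present in all samples: PAX8 lay between 201 and 245 CPM, and the 8 markers measured of 10 (KRT19 and CA9 were not analysed here) summed to 1829 to 2548 CPM in controls and 2074 to 2708 after hLcn-2. Most of that sum was VIM (mean 1769 CPM), which mesenchymal cells also express, while PAX2 and CDH16 were low (means 2.75 and 5.13 CPM). Of 10 markers of blood, vessel, stroma, muscle and liver cells, 5 (PTPRC, CD68, PECAM1, CDH5 and DES) were not analysed here, and the other 5 summed to 7.93 to 11.3 CPM in controls and 5.43 to 9.71 after hLcn-2. The samples numbered 3 stood apart in the share of transcripts from the mitochondrial genome, which was 12.7% in the control and 13.8% in the treated one, and 7.37% to 8.83% elsewhere. Samples of the same number deviated together from their group means, with correlations across genes between 0.31 and 0.61, so each difference was also examined within the 4 same-numbered pairs. Nothing in the labels says that same-numbered samples came from separate cultures, so p-values measure only the spread between these samples, which may be technical. In such bulk RNA, fewer expressing cells and less RNA per cell cannot be told apart.

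SLC7A11 and SLC7A5 were the members whose groups did not overlap, and both were higher after hLcn-2. SLC1A4 and SLC1A5 were higher in each pair but overlapped between groups, while SLC7A1 and SLC38A1 were higher in each pair by smaller amounts. SLC3A2, SLC38A2 and SLC7A6 did not differ in the same direction in all 4 pairs. Across the 9 members the median log2 fold change was 0.22, with 7 above 0, whereas the median of the 15593 genes tested was 0.00083, with 50.2% above 0. Because the members were chosen with earlier results of these data known, this contrast is a description only. Within the pairs the median of the members was 0.15, 0.26, 0.44 and 0.22 for numbers 1 to 4.

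**Figure D1:**
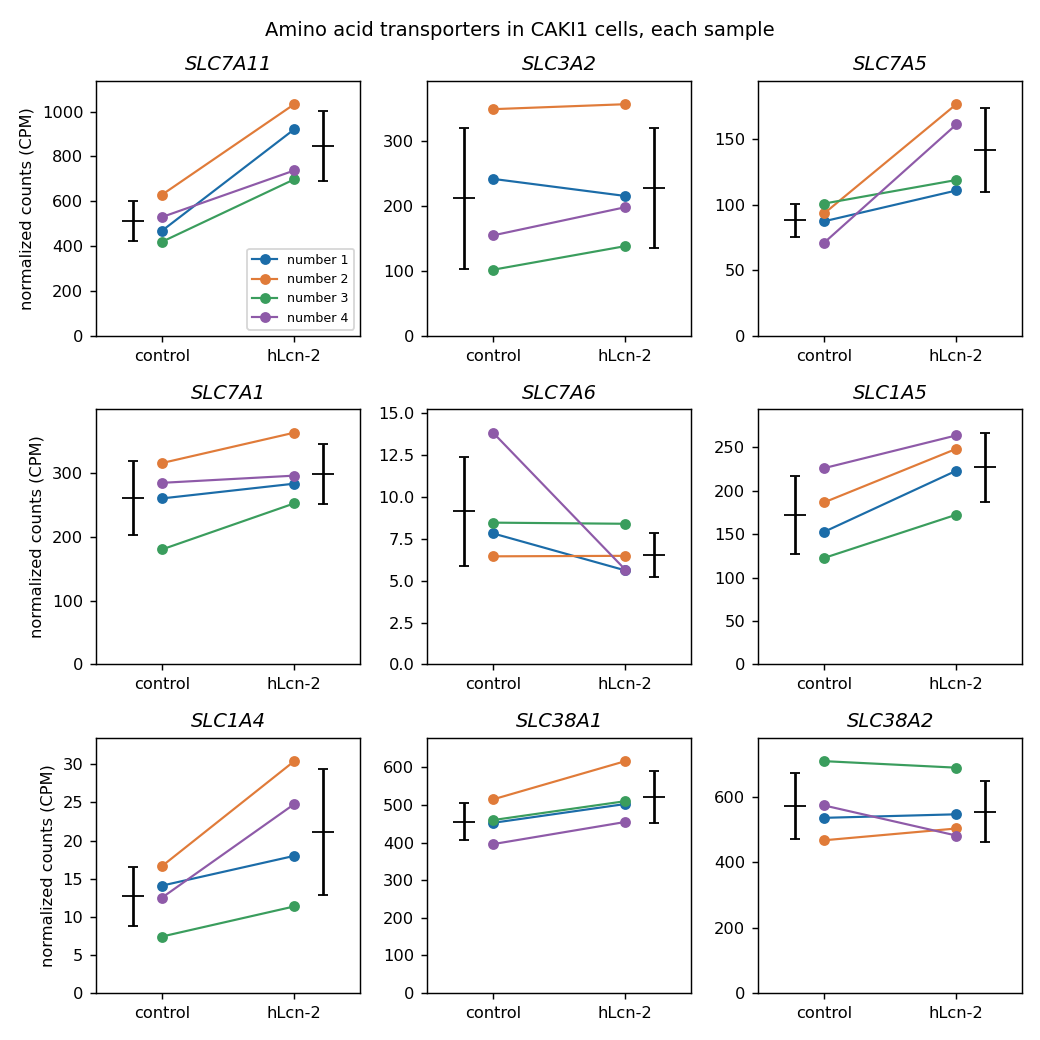
Normalized counts (CPM, linear axes from 0) of the 9 members in each of the 4 control and 4 hLcn-2 samples; lines join samples of the same number, and the bars beside them give mean ± SD (n = 4). SLC7A11 and SLC7A5 show no overlap between groups, and number 3 is the lowest of its group for SLC7A11, SLC3A2, SLC7A1, SLC1A5 and SLC1A4.

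SLC7A11 (ENSG00000151012, GRCh38 chr4:138164097-138242349, minus strand) had 469, 630, 420 and 530 CPM in controls 1 to 4. After hLcn-2 it had 921, 1033, 698 and 738 CPM. The lowest treated sample, number 3, thus lay above the highest control, number 2, and within both groups number 2 was highest and number 3 lowest. The ratio of the group means was 1.65. On the scale of log2(normalized count + 1), the log2 fold change was 0.72 (95% interval 0.36 to 1.09). With the replicate number as a block, the interval was 0.54 to 0.90. Intervals and standard errors given for the genes come from the fit without the block unless the block is named. The differences were largest in pair 1 (0.97) and smallest in pair 4 (0.48).

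SLC7A5 (ENSG00000103257, chr16:87830023-87869507, minus strand), the light chain of LAT1, had 87.5, 93.5, 101 and 71.1 CPM in controls 1 to 4 and 111, 177, 119 and 161 CPM after hLcn-2. All treated samples were above all controls, but samples 1 and 3 only narrowly, and samples 2 and 4 by far more. The exact permutation test between groups (two-sided) gave an unadjusted p = 0.0286, the smallest that 4 against 4 allow. Groups without overlap always give this p, for SLC7A11 too, so it adds nothing to the lack of overlap. The log2 fold change of SLC7A5 was 0.66 (standard error 0.18 without and 0.13 with the block), with pair differences of 0.34, 0.91, 0.23 and 1.17. SLC7A5 and SLC7A11 thus differed in which pair moved most: pair 4 gave the largest difference for SLC7A5 and the smallest for SLC7A11. Among all genes tested, 0.891% were higher after hLcn-2 without overlap, and 2 of the 9 members were.

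SLC1A4 (ENSG00000115902, chr2:64988477-65023865, plus strand) encodes ASCT1, an exchanger of serine, alanine and cysteine. It was low throughout, with 14.1, 16.7, 7.40 and 12.5 CPM in controls and 18.0, 30.4, 11.4 and 24.8 CPM after hLcn-2, resting on 19 to 222 reads per sample. Treated sample 3 lay below 3 of the controls, yet above its own control, and the pair differences were 0.33, 0.83, 0.56 and 0.93. The log2 fold change of 0.66 was close to those of SLC7A5 and SLC7A11, with a wider 95% interval from -0.0095 to 1.34 without the block. With the block the interval was 0.34 to 0.99.

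SLC1A5 (ENSG00000105281, chr19:46774883-46788594, minus strand), the glutamine carrier ASCT2, was an order of magnitude more abundant. It had 153, 186, 123 and 226 CPM in controls and 223, 248, 172 and 264 CPM after hLcn-2. The order of the samples was 4, 2, 1, 3 from highest to lowest in both groups, and each pair differed by less than the range of the 4 controls. Pair differences were 0.54, 0.41, 0.49 and 0.22, around a log2 fold change of 0.42 (standard error 0.20 without and 0.080 with the replicate number as a block). It was 0.27 without control 3.

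SLC7A1 (ENSG00000139514, chr13:29509414-29595688, minus strand) encodes CAT1, which takes in arginine and lysine. Its values were 260, 315, 180 and 284 CPM in controls and 283, 363, 252 and 296 CPM in treated samples. The log2 fold change was 0.22 (95% interval -0.18 to 0.61 without the block and 0.036 to 0.40 with it). The groups overlapped widely, and pair 3 gave the largest difference (0.48); the log2 fold change was 0.050 without control 3, 0.12 without hLcn-2 sample 2 and, in the blocked fit without number 3, 0.13. SLC38A1 (ENSG00000111371, chr12:46183063-46270017, minus strand), the glutamine carrier SNAT1, had 452, 515, 460 and 396 CPM in controls and 502, 616, 510 and 455 CPM after hLcn-2. Its pair differences were small and alike, at 0.15, 0.26, 0.15 and 0.20, the narrowest spread of the 9 members (SD 0.052), around a log2 fold change of 0.19. Between groups that value was 0.12 without control 4 and 0.11 without hLcn-2 sample 2.

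SLC38A2 (ENSG00000134294, chr12:46358188-46372773, minus strand), the related carrier SNAT2, had 537, 468, 711 and 575 CPM in controls and 548, 504, 691 and 483 CPM after hLcn-2. It was higher in 2 pairs and lower in 2. Its log2 fold change was -0.039 (95% interval -0.39 to 0.31 without the block and -0.21 to 0.13 with it). Number 3 was the highest of its group for SLC38A2 in both groups, in contrast to the 5 members for which it was the lowest. The mitochondrial share was also highest in these samples, and its part in the levels was not tested.

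SLC3A2 (ENSG00000168003, chr11:62856004-62888880, plus strand), the shared heavy chain, varied most of the members among controls. It had 242, 349, 102 and 155 CPM in controls and 215, 357, 138 and 198 CPM after hLcn-2, a 3.42-fold range among controls. The group means of 212 ± 108 and 227 ± 92.4 CPM (SD, n = 4) differed by far less than that range. Its log2 fold change was 0.16 (95% interval -0.61 to 0.93), and turned to -0.14 without control 3 and to -0.080 without hLcn-2 sample 2. Within pairs it was -0.17, 0.031, 0.44 and 0.35, which gives an interval of -0.050 to 0.38 with the block.

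SLC7A6 (ENSG00000103064, chr16:68264516-68301823, plus strand) was the least abundant member, with 7.82, 6.45, 8.46 and 13.8 CPM in controls and 5.61, 6.48, 8.39 and 5.65 CPM after hLcn-2. Control 4 stood above the other 7 samples, on 21 reads in the shallowest library. The log2 fold change of -0.39 was -0.19 without control 4, and in 5 draws in which all libraries were thinned to the lowest total it ranged from -1.07 to -0.18. The gene SLC7A6OS on the opposite strand overlaps its last 500 bases, the part that 3′ libraries read. No annotated exon of another gene overlaps the last 500 bases of the other 8 members, although exons on the opposite strand overlap SLC7A11, SLC7A5 and SLC1A5 elsewhere.

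**Figure D2:**
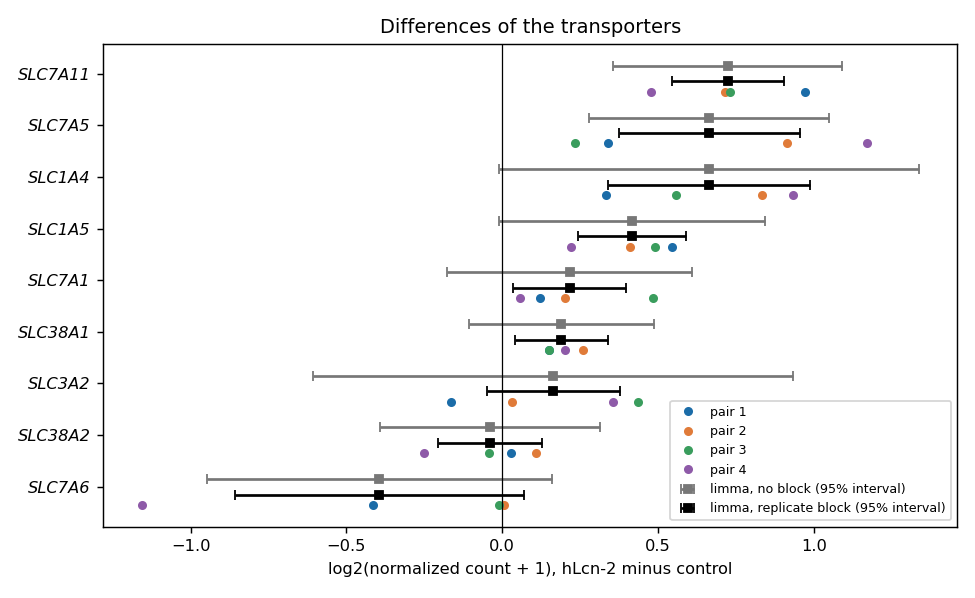
Difference between hLcn-2 and control on the log2(normalized count + 1) scale for each member: squares with 95% intervals from limma without (grey) and with (black) the replicate block, and coloured points for the 4 pairs. The members are ordered from SLC7A11 (0.72) to SLC7A6 (-0.39), and 6 members have all 4 points to the right of 0.

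The tests across all genes gave different calls with and without the pairing. In limma without the block, 0 of the 9 members and 0% of the genes tested passed an adjusted p-value of 0.05 (Benjamini-Hochberg), and all members stood at 0.9999. Before adjustment, SLC7A11 and SLC7A5 reached 0.05 in this limma fit and were higher, as were 1.21% of all genes (355 genes reached it in either direction). The edgeR quasi-likelihood test and DESeq2 without the block also called 0 members, and 4 and 3 of them reached 0.05 unadjusted, as did 324 and 284 of the 15593 genes. With the block, limma called SLC7A11 (adjusted p = 0.0150), while 0.218% of the genes tested were called higher. SLC1A5, SLC7A5 and SLC1A4 had adjusted p-values of 0.0552, 0.0569 and 0.0873 in the same fit and were not called. SLC38A1 and SLC7A1 followed with 0.286 and 0.315, and SLC7A6, SLC3A2 and SLC38A2 with 0.500, 0.551 and 0.880. Unadjusted, 6 members reached 0.05 in the blocked fit and were higher, against 6.65% of all genes, and 6 were higher in 4 of 4 pairs, against 9.93%.

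The count models with the block, run on the reads recovered from the normalized counts, called 4 members, all higher: SLC7A11, SLC7A5, SLC1A5 and SLC1A4. Their adjusted p-values were 0.000495, 0.00792, 0.0134 and 0.0236 in the edgeR quasi-likelihood test, in which 1.12% of all genes were called higher. DESeq2 called the same 4 members, with 0.84% of all genes higher. Leaving out a number moved these calls in the blocked limma fit. SLC7A11 had an adjusted p-value of 0.0618 without number 2 and 0.0735 without number 3, the number with the high mitochondrial share. Its log2 fold changes in these fits were 0.73 and 0.72. SLC7A11 passed without number 1 (adjusted p = 0.0288) and without number 4 (adjusted p = 0.0026). SLC7A5 passed only without number 1 (adjusted p = 0.0324) and SLC1A5 only without number 4 (adjusted p = 0.0394).

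Each read of a 3′ library stands for the end of a transcript, so the levels of the members were ordered without division by transcript length. In controls the order of the mean CPM ran from SLC38A2 (573) over SLC7A11 (512) and SLC38A1 (456) to SLC7A1 (260), SLC3A2 (212) and SLC1A5 (172), and on to SLC7A5 (88.3), SLC1A4 (12.7) and SLC7A6 (9.14). Neighbours in that order overlapped in their control samples, except SLC38A1 over SLC7A1, SLC1A5 over SLC7A5 and SLC7A5 over SLC1A4. After hLcn-2, SLC7A11 was the most abundant member in all 4 samples, and its lowest value (698 CPM) was above the highest of SLC38A2 (691 CPM). Summed over the 9 members, the level was 2222, 2580, 2112 and 2263 CPM in controls 1 to 4 and 2827, 3335, 2600 and 2624 CPM after hLcn-2. SLC7A11 made up 19.9% to 24.4% of this sum in controls and 26.8% to 32.6% after hLcn-2. Without SLC7A11 the sums were 1692 to 1950 CPM and 1886 to 2302 CPM, which overlapped between groups but were higher after hLcn-2 in 4 of 4 pairs.

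Because the light chains need SLC3A2 to reach the membrane, their transcripts were set against that of the heavy chain within each sample. The log2 ratio of SLC7A11 over SLC3A2 was 0.95, 0.85, 2.03 and 1.77 in controls and 2.09, 1.53, 2.33 and 1.89 after hLcn-2. It was higher in 4 of 4 pairs, by 1.14, 0.68, 0.30 and 0.12, yet the groups overlapped since controls 3 and 4 already had high ratios. The mean difference of 0.56 was within the spread between samples (exact permutation test, two-sided, p = 0.171, adjusted over 5 ratios p = 0.371). For SLC7A5 over SLC3A2 the difference was 0.50 and was seen in 3 of 4 pairs, and for SLC7A6 over SLC3A2 it was -0.56, lower in 4 of 4 pairs. SLC1A4 over SLC1A5 differed by 0.25 in 3 of 4 pairs, and SLC38A1 over SLC38A2 by 0.23 in 4 of 4 pairs. None of these 4 differences passed either (adjusted p = 0.371 in the exact permutation test for each). That test ignores the pairs, and after adjustment a ratio at its smallest p of 0.0286 could pass only if others were as low. With 4 pairs the sign-flip test cannot give a p under 0.125. The lack of a call therefore does not show that the ratios were unchanged.

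**Figure D3:**
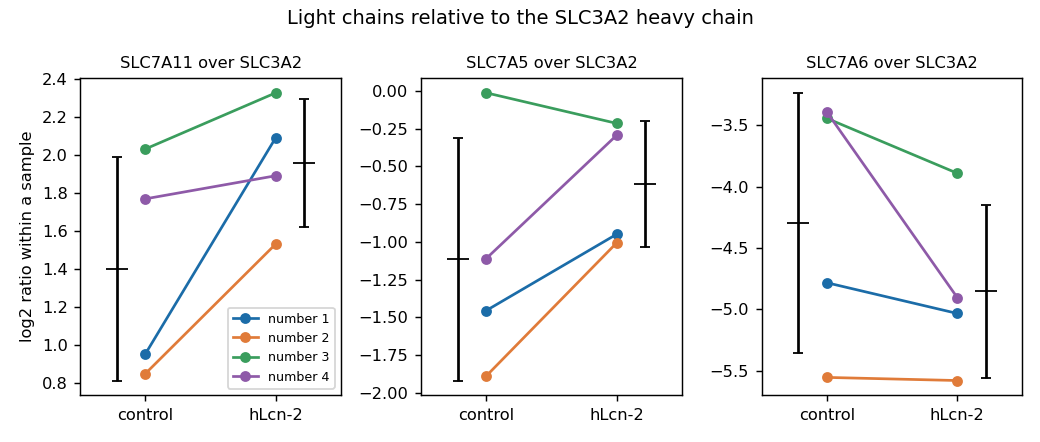
Log2 ratio of the light chains SLC7A11, SLC7A5 and SLC7A6 over the heavy chain SLC3A2 within each sample; lines join samples of the same number, and bars give mean ± SD (n = 4). The ratio of SLC7A11 is higher after hLcn-2 in 4 of 4 pairs, by 0.12 to 1.14, and the groups overlap.

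Other genes were ranked by how closely their values followed SLC7A11 over the 8 samples, as the root mean square difference of the log2 profiles, each with its own mean subtracted. Among 9005 genes with a mean of at least 10 CPM, the closest was MTHFD2 (0.11), a mitochondrial enzyme of one-carbon metabolism, with 177, 231, 161 and 187 CPM in controls and 333, 398, 210 and 282 CPM after hLcn-2. Because MTHFD2 was picked for its likeness to SLC7A11 over these samples, its group difference is a description. It was followed by EDEM1 (0.16), which directs misfolded glycoproteins of the ER to degradation, the uncharacterised LOC101929705 (0.18), EIF2AK3 (0.18), which encodes the eIF2α kinase PERK, and the monooxygenase gene FMO1 (0.19). The median over all genes compared was 0.48. Of the members, SLC1A5 was closest at rank 75 (0.28), followed by SLC7A1 at rank 108, SLC7A5 at rank 219, SLC38A1 at rank 281 and SLC1A4 at rank 385. SLC3A2 (0.50) and SLC38A2 (0.55) were farther from SLC7A11 than the median gene, and SLC7A6 was below the level compared.

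**Figure D4:**
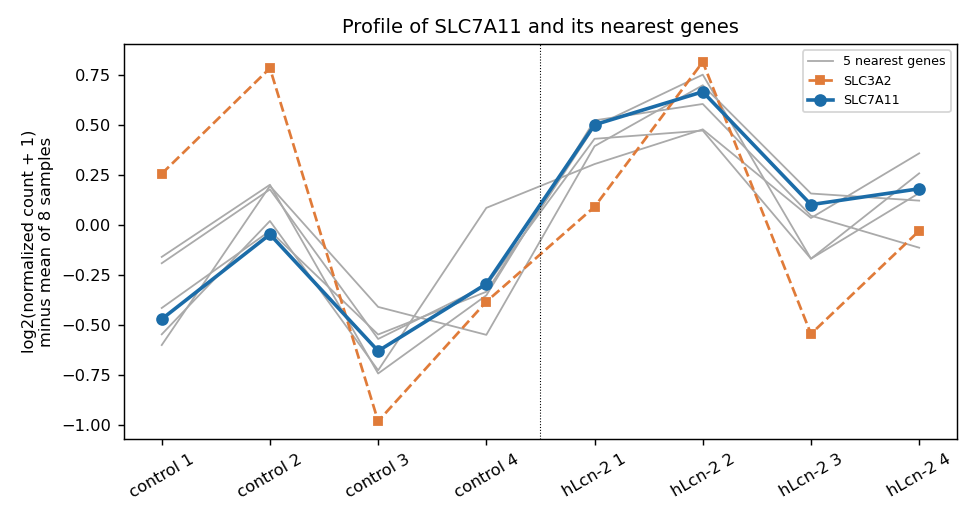
Log2(normalized count + 1) of SLC7A11 (blue), SLC3A2 (orange, dashed) and the 5 genes nearest to SLC7A11 (grey), each minus its mean over the 8 samples. SLC7A11 and the grey lines are higher in the hLcn-2 samples within each number, while SLC3A2 follows the replicate number.

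A wider list held 43 other amino acid transporters. Of these, 22 were tested, 10 with a log2 fold change above 0 and 12 below, with a median of -0.0096. Limma called 0 of them without the block (0 reached 0.05 unadjusted) and 0 with it (5 reached 0.05 unadjusted, against 1900 of the 15593 genes), and the edgeR quasi-likelihood test with the block called 0. The most abundant were SLC15A4 (106 CPM over all samples) and SLC36A4 (53.5 CPM), with log2 fold changes of 0.11 and -0.14, and SLC38A10 (42.2 CPM) and SLC38A6 (37.9 CPM), with -0.17 and -0.021. SLC36A1, a proton-coupled amino acid carrier, is named after its values were seen, as the only one without overlap between groups. Among all genes tested, 0.891% were higher without overlap. It lay at 25.3 CPM or less in controls and at 26.3 to 37.8 CPM after hLcn-2, and in limma its adjusted p was 0.301 with the block.

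All 13 listed regulators of the amino acid and oxidative stress responses were tested. Of these, 10 had a log2 fold change above 0, against 50.2% of all genes tested, with a median of 0.19. Limma called 0 of them without the block, where 2 reached 0.05 unadjusted, against 355 of the 15593 genes. With the block 7 reached 0.05 unadjusted, against 1900 genes, and NUPR1, among these 7, was lower. Only CEBPB, a partner of ATF4 on response elements, was called with the block (adjusted p = 0.0317), while 0.218% of all genes were called higher. CEBPB had 180, 211, 258 and 193 CPM in controls and 316, 343, 321 and 256 CPM in treated samples. Of the 13, 7 were higher in 4 of 4 pairs, against 9.93% of all genes. The edgeR quasi-likelihood test with the block also called SESN2, a stress-induced inhibitor of mTORC1 (log2 fold change 0.63 in limma), and CEBPG (0.43). It called 1.12% of all genes higher. ATF4 itself had 319, 329, 356 and 395 CPM in controls and 351, 415, 329 and 526 CPM in treated samples, and was higher in 3 of 4 pairs. Its log2 difference was 0.19 (95% interval -0.15 to 0.54 without the block). With the block the interval was 8.4e-05 to 0.38, and the adjusted p in limma was 0.410. NFE2L2, which encodes NRF2, had a log2 fold change of 0.16 and its inhibitor KEAP1 one of -0.080. These are RNA levels after 24 h, and they do not show the protein level or activity of the regulators, at that time or earlier. The other regulators lay at 0.53 for MYC, 0.47 for DDIT4, 0.36 for DDIT3, 0.16 for TRIB3, 0.14 for ATF5, -0.063 for ATF3 and -0.22 for NUPR1, none of them called in these 3 fits.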

How the data were processed

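In the authors' processing, UMIs were kept in the read identifiers, and single-end reads were aligned to GRCh38 with STAR, collapsed by UMI, and counted with HTSeq, and genes without counts were removed; tool versions are not given in the sources used here, nor is whether counting used strand. The unit of the deposited table is a scaled signal: counts divided by a library size that the authors adjusted (CPM). All 134256 values (100%) were whole multiples of the worth of 1 read (within 0.01 reads), which gave back the reads. One decimal comma was read as a point.

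Libraries held 1501563 to 13953090 reads. Groups and replicate numbers came from the sample titles. Limma 3.58.1 (R 4.3.3) with an intensity trend, two-sided, was run on log2(normalized count + 1) for genes that reached 1 CPM in 2 or more samples, without a replicate block because the study names none. Same-numbered samples correlated at 0.31 to 0.61 in their deviations from group means (other pairs -0.46 to 0.23), so the blocked fit is given beside it. Adjusted p-values run over all genes tested. EdgeR 4.0.16 and DESeq2 1.42.0 were run on the recovered reads as alternatives, with other pseudocounts, filters, scalings, thinning and samples left out. The models were tested on simulated data with changes larger than those fitted for the members, so their power for changes of the members' size was not tested. Exact permutation tests used the 70 regroupings of 4 against 4. The worth of 3 reads, given as the floor of a library, covers counting error only.

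Named genes were the members, the 4 most abundant of 43 other transporters and any called, all 13 regulators tested, and the 5 genes nearest to SLC7A11. The members and lists were chosen with earlier results of these data known, and the study had singled out SLC7A11 in its own analysis of this sequencing. The study's heatmap caption states fewer samples per group than were used here, and which ones is not said. Promoter windows are from RefSeq, gene positions from GENCODE 44.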

Additional observations from a re-analysis of the deposited data

Results flagged for a closer look

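In 5 of the 88 groups of 4 values examined (members, other transporters and regulators, in each group), 1 sample lay far from the other 3, where chance gives about 1 in 20, or 4.4. None was a value of the 9 members, and all 5 were hLcn-2 samples of other transporters. SLC7A2, a cationic amino acid carrier, had 39.5 CPM in sample 3, and SLC3A1, the heavy chain of the renal cystine transporter, 27.6 CPM in sample 3, both above the others of their group. SLC36A4 was lowest in sample 3 (40.0 CPM) and SLC38A6 in sample 4 (20.4 CPM). SLC36A1 was highest in sample 1 (37.8 CPM). In each of these 5 genes the control of the same number lay at the same end of its own group: SLC7A2 had 21.9 CPM and SLC3A1 34.4 CPM in control 3, SLC36A4 47.2 CPM in control 3, SLC38A6 30.3 CPM in control 4 and SLC36A1 25.3 CPM in control 1. The library of hLcn-2 sample 3 held 2088266 reads, the fewest of its group, and the part of depth in these values was not tested.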

How the results depend on the processing

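The replicate block decided the calls. None of the fits without it called a member or any other gene, and limma without it called 0 genes also at an adjusted p of 0.1 (355 genes reached an unadjusted 0.05). In limma the block also added the calls of CEBPB and MTHFD2 (the latter picked for its likeness to SLC7A11), and it changed no other call of a named gene. With the block, limma called 1 member and 44 genes in all, the edgeR quasi-likelihood test 4 and 233, and DESeq2 4 and 173. Limma with the block called 1 member and 8 genes with a pseudocount of 0.1, 3 members and 85 genes with a filter on a mean of 10 CPM, and 0 of both without the intensity trend (4 members and 1567 genes reached an unadjusted 0.05); these 3 combinations were chosen after seeing the data. Thinned to the lowest total, limma with the block called SLC7A11 as its 1 gene, and between 1 and 20 genes in 5 draws, with SLC7A11 at adjusted p-values of 0.00421 to 0.0464. With numbers left out of the blocked fit, 0 to 2 members and 0 to 54 genes were called (13 genes without number 1, 3 without number 2, 0 without number 3 and 54 without number 4).

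The log2 fold changes of SLC7A11, SLC7A5, SLC1A4, SLC1A5, SLC7A1 and SLC38A1 were above 0 under every alternative run, and that of SLC7A6 below 0. SLC7A11 ranged from 0.66 to 0.74 with all samples and from 0.62 to 0.83 with samples left out. The median of the members, 0.22, lay between 0.12 and 0.45 with samples left out, highest without control 2 (0.45) and without hLcn-2 sample 3 (0.37). With samples left out, SLC3A2 lay between -0.14 and 0.45 and SLC38A2 between -0.15 and 0.070, so that neither had a fixed direction; SLC3A2 was -0.14 without control 3 and -0.080 without hLcn-2 sample 2, and SLC38A2 was 0.070 without control 3, 0.0031 without hLcn-2 sample 2, 0.024 without hLcn-2 sample 4 and 0.032 in the blocked fit without number 4. The 5 ratios between members kept their sign under the alternatives run, and none passed, but their sizes rested on single samples. With 1 sample left out, SLC7A11 over SLC3A2 lay between 0.38 and 0.77, SLC7A5 over SLC3A2 between 0.24 (without control 2) and 0.87 (without control 3), and SLC7A6 over SLC3A2 between -0.98 (without control 2) and -0.26 (without control 4). SLC1A4 over SLC1A5 lay between 0.10 (without hLcn-2 sample 2) and 0.37 (without hLcn-2 sample 3), and SLC38A1 over SLC38A2 between 0.10 (without hLcn-2 sample 2) and 0.38 (without control 2). Depth limits SLC7A6 and SLC1A4 most, whose lowest samples held 17 and 19 reads.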
